A study of Homo sapiens with 6 samples.

Results

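Small RNAs repress mRNAs through a chain of proteins, and the mRNAs of the genes that encode this chain were themselves followed here across an AGO2 pull-down. They were chosen as a fixed list of 10 genes: the 4 Argonaute genes AGO1, AGO2, AGO3 and AGO4, the 3 TNRC6 genes TNRC6A, TNRC6B and TNRC6C, and the processing genes DICER1, DROSHA and DGCR8. All 10 were present among the 60708 genes counted in every library. Cells of the human breast cancer line MDA-MB-231, which is triple-negative (without hormone receptors or raised HER2), were transfected with a miR-99b-5p mimic, a synthetic RNA that raises this microRNA, or with a scrambled control. AGO2 and the RNA bound to it were then captured by an antibody (AGO2-IP). What the antibody did not hold was kept as the flow-through. Of the 6 libraries, 4 came from mimic cells, 2 for each fraction, and the control cells gave 1 library for each fraction. The control fractions rest on the library labels alone. The study's own sample list enters the pair of control libraries as replicates without stating a fraction, and its methods describe replicate AGO2-IP samples for control cells as well as mimic cells. If both control libraries came from the pull-down, the control ratios below would not compare fractions.

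As background, DROSHA and its partner DGCR8 form the Microprocessor, which cuts the hairpin out of a primary microRNA transcript in the nucleus. DICER1 trims the exported hairpin to a short duplex, of which 1 strand is loaded into an Argonaute protein. The loaded strand pairs through its seed, bases 2 to 8, with target mRNAs. TNRC6 proteins, also called GW182, bind Argonaute and recruit the deadenylases and decapping factors that silence and degrade the target. All 4 human Argonautes load microRNAs, and AGO2 is the one best known for cutting a fully paired target. The counts measure mRNA, captured with the AGO2 antibody or left in the flow-through, and not the proteins themselves. No pull-down with a control antibody is among the libraries. RNA held without AGO2 therefore cannot be told apart from RNA bound to it. A level in the AGO2-IP depends on how abundant a transcript was and on how much of it was pulled down, and in bulk cultures more transcript per cell and more cells with the transcript cannot be told apart.

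The mimic used is the mature miR-99b-5p, shown here because its seed defines where it could pair with these mRNAs. RefSeq gives it 22 bases at chr19:51692618-51692639 on the plus strand (GRCh38.p14), with the seed in capitals below.
hsa-miR-99b-5p: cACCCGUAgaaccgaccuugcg
The transcripts of the genes were searched, on the transcript strand only, for ACGGGT, which pairs with bases 2 to 7, and for the longer forms TACGGGT, which also pairs with base 8, and ACGGGTA, which adds a closing adenine, and TACGGGTA, which does both. One annotated main transcript per gene was used, from GENCODE 44. Of the 10 genes, 4 held 7 matches in all: 3 in TNRC6B, 2 in AGO1, and 1 each in AGO2 and DGCR8. The longest form, TACGGGTA, was not found in any of the 10. Matches are in capitals in these windows of 30 bases (GRCh38, plus strand).
AGO1, 5′ untranslated region, chr1:35883397-35883426: cctgacctccgcACGGGTAtatgggatgga
TNRC6B, coding, chr22:40264796-40264825: aggtgattgtagACGGGTctgacatggaag
TNRC6B, coding, chr22:40265656-40265685: aataacaggtcTACGGGTgggtcctggaac
TNRC6B, coding, chr22:40310891-40310920: ctgggtggccaTACGGGTcctgctggtgat
DGCR8, coding, chr22:20089690-20089719: agccgctgcccgACGGGTggatcatgacat
The second AGO1 match lay in the coding sequence across an exon junction. The match in AGO2, TACGGGT, was the only one of the 7 in a 3′ untranslated region, at base 791 of 11888, and 2 of the 10 annotated AGO2 transcripts held it. Among 11728 tested coding genes, 17.1% held a match anywhere and 6.68% held one in the 3′ untranslated region. These transcripts are long: among the 4102 tested coding genes with a transcript of at least 4506 bases, the length of the shortest of the 10, the shares were 26.5% and 11.9%. The share of 4 in 10 with a match, and of 1 in 10 in the 3′ untranslated region, is a description of letters and not of binding.

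The libraries were not alike. Counts on genes came to between 38022779 and 48544756 in the mimic libraries, against 7772149 and 8076375 in the control ones, where 92.3% of read pairs or more were assigned to no gene. Mitochondrially encoded genes took 43.4% of the control flow-through counts, 3.48% of the control AGO2-IP and at most 0.125% of any mimic library. Between the mimic flow-through libraries the log2 differences had an SD of 1.44 across genes. Over 11728 coding genes, which are no replicates, they followed the GC content of the transcript (Spearman's rho 0.76). Between the mimic AGO2-IP libraries the SD was 0.84 and rho 0.01. Markers of the line (VIM, CD44, AXL, CAV1, MSN, S100A6) lay between 59.0 and 2729 CPM, counts scaled to a fixed library total, in all 6 libraries, while ESR1, PGR, CDH1, EPCAM, GATA3 and FOXA1 lay between 0 and 24.8 CPM. PTPRC, CD3E, ALB, HBB and PECAM1, markers of other cell types, lay between 0 and 8.47 CPM.

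In mimic-transfected cells, transcripts of TNRC6A, DICER1, TNRC6C and AGO4 had the largest excess in the AGO2-IP over the flow-through, and those of AGO1 and AGO3 had about the same level in both. None of the 10 passed the test with 2 libraries a side and no replicate term. With the replicate number as a block, TNRC6A and DICER1 passed, and 4.60% of all genes tested were called enriched. The log2 fold changes by edgeR's quasi-likelihood test ran from -0.14 for AGO3 to 3.44 for TNRC6A, with a median of 1.12 against -0.11 over the 13078 genes tested and -0.05 over the protein-coding ones. Of the 10 genes, 7 had a log2 fold change of 1 or more, as did 20.0% of all genes tested. Over 11728 coding genes the log2 fold change followed transcript GC content (Spearman's rho -0.55) and length (rho 0.30). The 10 transcripts, from 4506 to 19660 bases, are longer than the median of 3496. With each library's GC trend removed, 5 of the 10 were at 1 or more, beside 16.7% of all genes. No background matched for length was made, and the part of GC and length in the excess was not tested. Calls required a log2 fold change of 1 or more in size and a Benjamini-Hochberg adjusted p no higher than 0.05. By that rule 0.245% of all genes were enriched and 0.413% depleted. At an unadjusted p under 0.05 and a log2 fold change from 1 upward, 4 of the 10 genes (TNRC6A, DICER1, TNRC6C and AGO4) passed, beside 10.6% of all genes. For 8 of the 10, all but AGO1 and AGO3, both AGO2-IP libraries lay above both flow-through libraries after normalization, as for 28.1% of all genes.

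**Figure D1:**
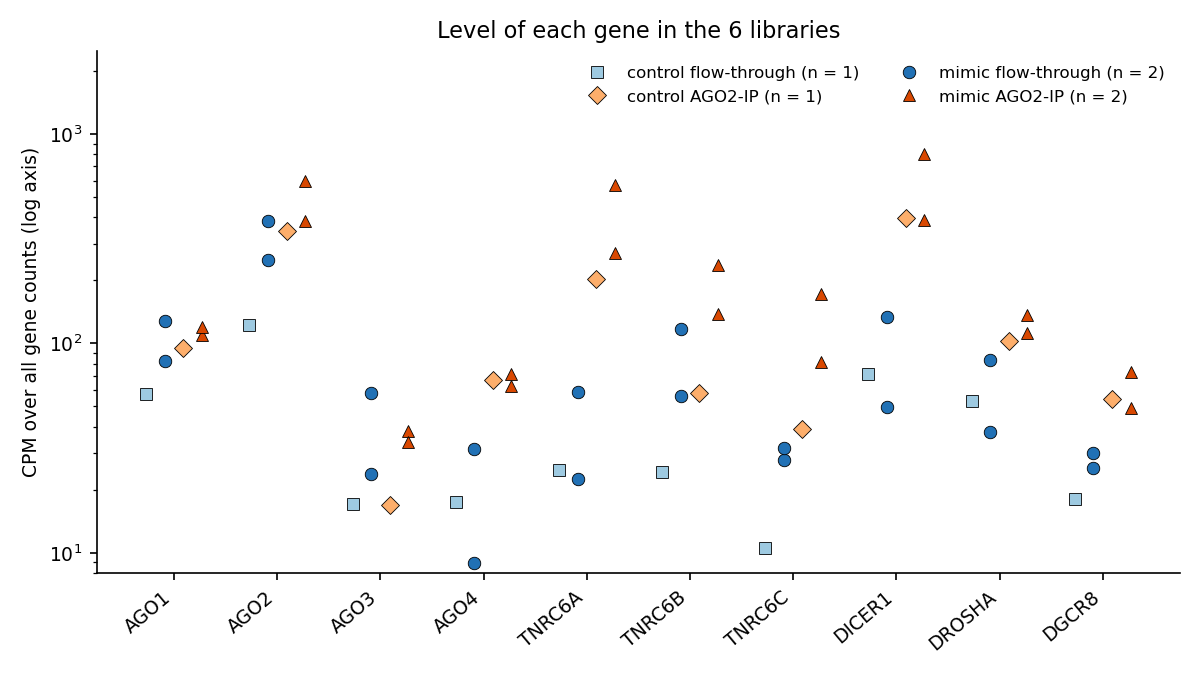
Level of the 10 genes in each of the 6 libraries, in CPM over all gene counts on a log axis, with 1 point per library and the 4 groups marked by shape and colour. TNRC6A has the widest gap, from 22.6 and 58.8 CPM in the mimic flow-through to 271 and 571 CPM in the mimic AGO2-IP. In CPM the mimic fractions overlap for AGO1, AGO2 and AGO3.

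AGO2 (ENSG00000123908.12, chromosome 8 from 140520156 to 140635633, minus strand) encodes the protein that the antibody captured. Its mRNA had 385 and 250 CPM in the mimic flow-through libraries and 383 and 597 CPM in the mimic AGO2-IP. In control cells it had 122 CPM in the flow-through and 343 CPM in the AGO2-IP. In CPM the fractions of mimic cells met at about 383 to 385, and only the second AGO2-IP library stood clear. The log2 fold change after TMM normalization was 0.63 (SE 0.58, adjusted p = 0.527 by edgeR's quasi-likelihood test), and the control log2 ratio of AGO2-IP over flow-through was 0.60, with a 95% counting interval from 0.49 to 0.70. The other 3 Argonaute genes lie side by side on the plus strand of chromosome 1, in the order AGO4 (35808016 to 35857890), AGO1 (35869808 to 35930532) and AGO3 (35930718 to 36072500). Their log2 fold changes are given side by side, and the differences between them were not tested.

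AGO4 was the Argonaute mRNA with the largest excess in the AGO2-IP. It had 31.2 and 8.98 CPM in the mimic flow-through and 62.3 and 71.7 CPM in the mimic AGO2-IP, a log2 fold change of 1.82 (SE 0.67, adjusted p = 0.145). In control cells it went from 17.5 CPM in the flow-through to 66.7 CPM in the AGO2-IP, a log2 ratio of 1.03 (95% counting interval 0.76 to 1.31). The AGO2-IP levels lay within a narrow range in all 3 pull-downs, and it was the flow-through that varied. AGO1 had 129 and 82.5 CPM in the mimic flow-through and 110 and 120 CPM in the mimic AGO2-IP, a log2 fold change of 0.12 (SE 0.58, adjusted p = 0.918). AGO3, the least abundant of the 4 per length, had 57.7 and 23.9 CPM in the mimic flow-through and 38.0 and 33.6 CPM in the mimic AGO2-IP, a log2 fold change of -0.14 (SE 0.62, adjusted p = 0.908). For both genes the fractions overlapped. In control cells AGO1 had 57.3 CPM in the flow-through and 94.7 in the AGO2-IP, and AGO3 had 17.1 and 16.8. After normalization their control log2 ratios were -0.17 for AGO1 and -0.90 for AGO3, and with library size alone they were 0.74 and -0.01, so the direction for AGO1 depended on the scaling.

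The TNRC6 genes, whose proteins bridge Argonaute to the silencing machinery, all had higher levels in the AGO2-IP of mimic cells. TNRC6A (ENSG00000090905.19, chromosome 16 from 24610209 to 24827632, plus strand) had 58.8 and 22.6 CPM in the mimic flow-through and 271 and 571 CPM in the mimic AGO2-IP. The fractions were far apart, with the lowest of the 4 differences between single libraries at 2.38 and the highest at 4.40 on the log2 scale. Its log2 fold change of 3.44, a 10.8-fold difference, had an SE of 0.71 and an adjusted p = 0.0543 by edgeR's quasi-likelihood test, just short of the threshold, and with the replicate block the adjusted p was 0.00148. In control cells TNRC6A went from 24.8 CPM in the flow-through library to 202 CPM in the AGO2-IP library, the largest control log2 ratio of the 10 at 2.13 (95% counting interval 1.91 to 2.35).

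TNRC6C (chromosome 17 from 77958703 to 78108822, plus strand) had 27.8 and 31.7 CPM in the mimic flow-through and 81.3 and 172 CPM in the mimic AGO2-IP, a log2 fold change of 2.02 (SE 0.66, adjusted p = 0.117). TNRC6B (chromosome 22 from 40044817 to 40335808, plus strand), which carried the 3 coding seed matches shown above, had 117 and 56.2 CPM in the mimic flow-through and 138 and 236 CPM in the mimic AGO2-IP, a log2 fold change of 1.15 (SE 0.62, adjusted p = 0.275). The TNRC6B gap between the closest libraries of the 2 fractions was small, 0.42 on the log2 scale. Control log2 ratios were 0.98 for TNRC6C and 0.35 for TNRC6B, with 95% counting intervals from 0.62 to 1.35 and from 0.10 to 0.60.

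Among the processing genes, DICER1 (ENSG00000100697.15, chromosome 14 from 95086228 to 95158010, minus strand) had the profile nearest to that of TNRC6A. It had 134 and 49.8 CPM in the mimic flow-through and 390 and 799 CPM in the mimic AGO2-IP. Every AGO2-IP library exceeded every flow-through library by at least 1.72 on the log2 scale, and the log2 fold change was 2.77 (6.80-fold, SE 0.68, adjusted p = 0.0694, and 0.00875 with the replicate block). The control libraries held 71.4 CPM in the flow-through and 398 CPM in the AGO2-IP, a log2 ratio of 1.58 (95% counting interval 1.45 to 1.72). Over the 6 libraries, the root-mean-square difference between the centred log2 profiles of DICER1 and TNRC6A was 0.37, the second smallest of all pairs of the 10 genes and equal to 2 decimals to that of AGO1 with AGO2.

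The Microprocessor genes had smaller differences. DROSHA (chromosome 5 from 31400494 to 31532196, minus strand), the nuclease, had 83.7 and 37.8 CPM in the mimic flow-through and 112 and 136 CPM in the mimic AGO2-IP, a log2 fold change of 1.07 (SE 0.60, adjusted p = 0.295). DGCR8 (chromosome 22 from 20080221 to 20111877, plus strand), its RNA-binding partner, had 29.8 and 25.4 CPM against 72.7 and 49.4 CPM, a log2 fold change of 1.10 (SE 0.61, adjusted p = 0.288). Their control log2 ratios were 0.07 (95% counting interval -0.10 to 0.24) and 0.70 (0.42 to 0.98). DGCR8 shares exon bases with the microRNA genes MIR1306 and MIR3618 on its own strand and with TRMT2A on the other. Of the read pairs in both of its strand columns, between 13.6% and 33.1% were missing from the unstranded count, the most in the second mimic flow-through. Such pairs lie where genes on opposite strands overlap and may come from either gene. With both strand columns summed, which may take in pairs of the overlapping gene, its log2 fold change was 0.87. This share reached 7.87% for TNRC6C, which overlaps TMC6, and 6.85% for AGO3, and was at most 0.297% for the other 7 genes.

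**Figure D2:**
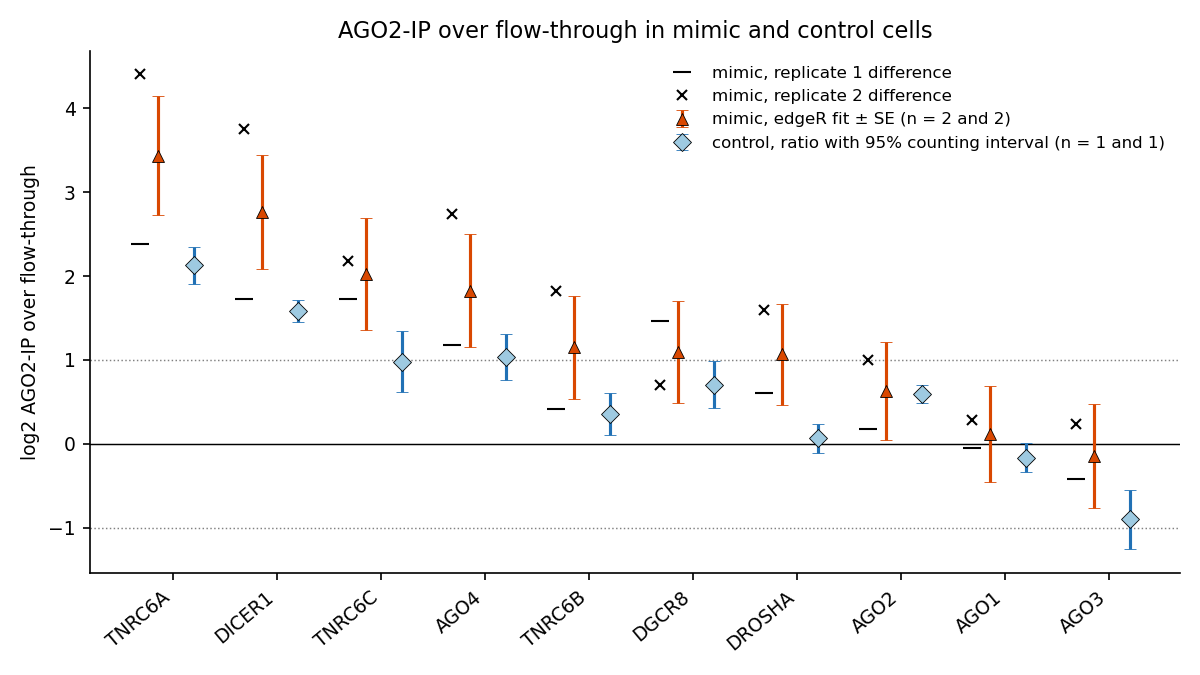
Log2 difference of AGO2-IP over flow-through for each gene, with triangles for the edgeR fit in mimic cells and its SE (n = 2 and 2), dashes and crosses for same-numbered library pairs, and diamonds for the single control pair with its 95% counting interval. Dotted lines mark 1 and -1. TNRC6A, at 3.44 and 2.13, and DICER1, at 2.77 and 1.58, lead in both mimic and control cells.

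The calls depended on the model and on the flow-through libraries used. In the second mimic flow-through library, 8 of the 10 genes lay below the first, by up to 1.30 on the log2 scale for AGO4. The exceptions were TNRC6C, 0.68 higher, and DGCR8, 0.26 higher, the genes with the highest transcript GC content, 52.4% and 54.6%, where the other 8 had between 38.9% and 46.6%. In the AGO2-IP libraries TNRC6A, TNRC6C and DICER1 each stood 1.10 to 1.14 higher in the second library than in the first, and DGCR8 lay 0.50 lower. With the replicate number as a block, TNRC6A (3.39, adjusted p = 0.00148) and DICER1 (2.74, adjusted p = 0.00875) were called enriched by edgeR, beside 4.60% of all genes. Removing each library's trend on GC content gave calls for TNRC6A (3.20, adjusted p = 0.0298) and TNRC6C (2.28, adjusted p = 0.0455), beside 3.32% of all genes, and took AGO3 to -0.96 (adjusted p = 0.174). With the GC trend removed and the block together, AGO4, TNRC6A, TNRC6C, DICER1 and DGCR8 were called, beside 14.0% of all genes.

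PyDESeq2 on the same counts called TNRC6A, DICER1, TNRC6C and AGO4, beside 6.43% of all genes, with adjusted p-values of 4.0e-05, 0.00135, 0.0268 and 0.0452. Without the first mimic flow-through library, AGO4, TNRC6A, TNRC6C, DICER1 and DROSHA were called by edgeR, beside 20.2% of all genes, with the lone flow-through assumed to vary like the AGO2-IP libraries. Over 19 alternative settings TNRC6A was called in 10, DICER1 in 7, TNRC6C in 5, AGO4 in 4, and DROSHA and DGCR8 in 1 each. AGO1, AGO2, AGO3 and TNRC6B were called in 0 of the 19. With each mimic library left out in turn, the log2 fold change of AGO2 ran from 0.20 without the second AGO2-IP to 0.92 without the first. TNRC6C ran from 1.30 to 2.47 and TNRC6B from 0.64 to 1.49 between the same settings. DICER1 ran from 2.08 without the second AGO2-IP to 3.26 without the first flow-through, AGO4 from 1.29 without the second flow-through to 2.57 without the first, and DROSHA from 0.75 to 1.39 likewise. DGCR8 ran from 0.82 without the first AGO2-IP to 1.29 without the second. AGO1 had a log2 fold change between -0.16 and 0.50 over these settings, and AGO3 between -0.96 and 0.26.

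**Figure D3:**
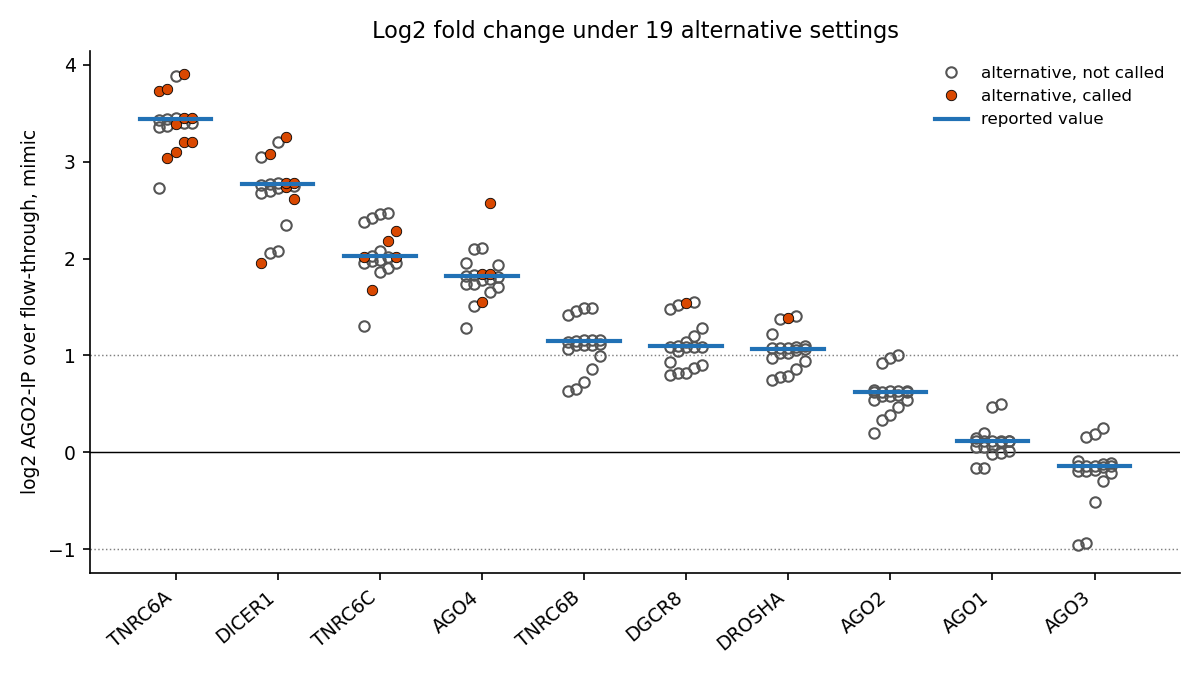
Log2 fold change of mimic AGO2-IP over flow-through for each gene under 19 alternative settings, as circles that are filled where the gene was called, with a bar at the reported value. TNRC6A stays between 2.72 and 3.90 and is called in 10 of 19 settings, while values for AGO1 and AGO3 lie on both sides of 0.

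Within each family the mix of transcripts differed between fractions. AGO2 held the largest part of the Argonaute counts everywhere, from 57.1% in the control flow-through to 72.6% in the second mimic AGO2-IP. AGO4 made up 8.18%, 5.17% and 2.46% of Argonaute counts in the control and the 2 mimic flow-through libraries, and 12.8%, 10.5% and 8.72% in the corresponding AGO2-IP libraries, so that all 3 pull-downs lay above all 3 flow-through libraries. AGO1 went the other way, with 21.3% to 26.8% in the flow-through libraries and 14.6% to 18.5% in the AGO2-IP libraries. These shares are of counts, which also follow transcript length, and set a fraction against a fraction rather than a gene against a gene.

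In the TNRC6 family the transcript with the largest share differed between fractions in mimic cells, and in control cells it was TNRC6A in the AGO2-IP while TNRC6A and TNRC6B had overlapping intervals in the flow-through. TNRC6B held 57.5% and 50.8% of TNRC6 counts in the mimic flow-through libraries and 28.2% and 24.1% in the mimic AGO2-IP. TNRC6A held 28.8% and 20.4% in the former and 55.2% and 58.3% in the latter. In control cells TNRC6A held 41.6% of the flow-through counts (95% Wilson interval 37.2% to 46.1%) and 67.7% of the AGO2-IP counts (65.8% to 69.5%), and TNRC6B 40.7% (36.4% to 45.3%) and 19.3% (17.8% to 20.9%). No test was run on these shares. Intervals cover counting error only, since the reads carry no molecular identifiers.

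**Figure D4:**
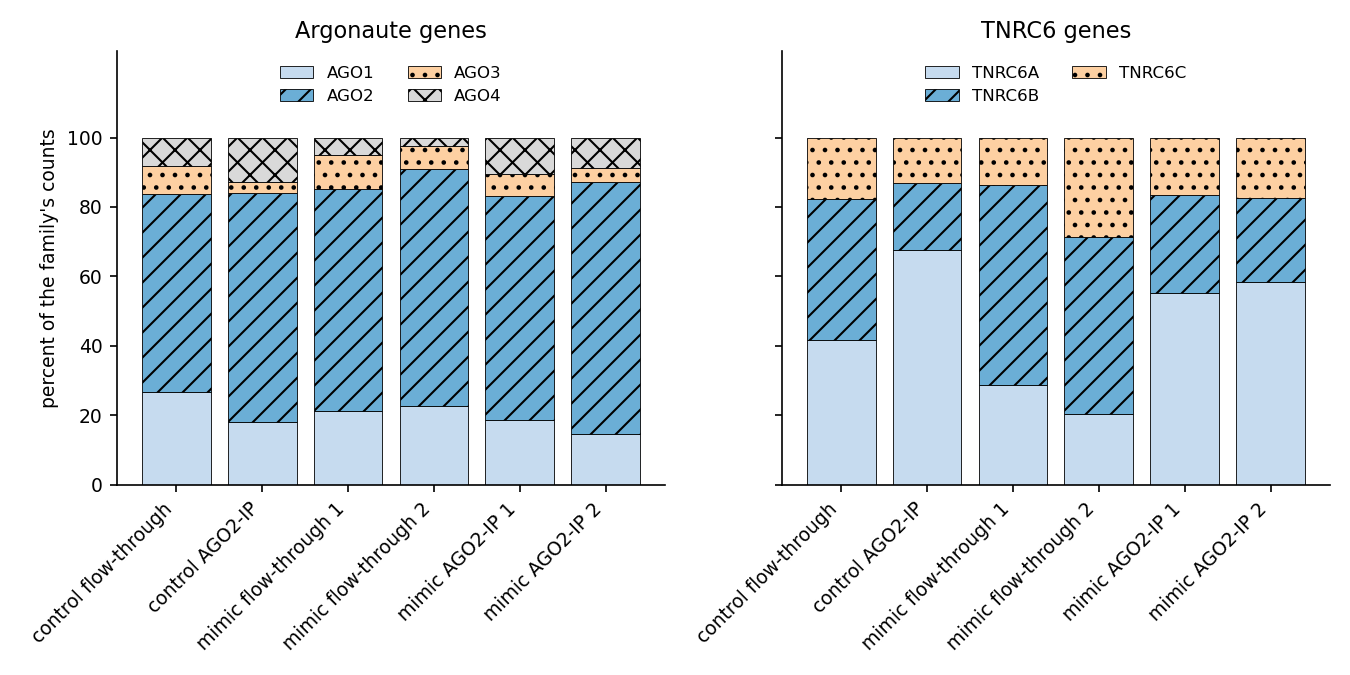
Share of each gene in the summed counts of the Argonaute genes (left) and the TNRC6 genes (right), in percent, in each of the 6 libraries. AGO2 fills 57.1% to 72.6% of every Argonaute bar, and TNRC6A fills 55.2% to 67.7% of the TNRC6 counts in the AGO2-IP libraries against 20.4% to 41.6% in the flow-through.

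To set genes against each other, CPM was divided by the length of each gene's merged exons in kilobases. In the mimic flow-through AGO2 was first with 20.0 ± 6.03 CPM per kilobase (SD, n = 2), followed by DROSHA with 7.81 ± 4.17, AGO1 with 7.51 ± 2.32, TNRC6B with 4.34 ± 2.16 and DICER1 with 4.14 ± 2.67. DGCR8, TNRC6A, AGO4 and TNRC6C came next, between 2.56 and 3.77, and AGO3 was last with 1.93 ± 1.13. Only AGO2 and DROSHA were neighbours separated by more than their SDs. In the mimic AGO2-IP the first was TNRC6A with 32.5 ± 16.4 CPM per kilobase, then AGO2 with 30.9 ± 9.52, DICER1 with 26.8 ± 13.1 and DROSHA with 15.9 ± 2.16. TNRC6C, TNRC6B, AGO4, DGCR8 and AGO1 followed between 8.17 and 10.9, and AGO3 was last with 1.69 ± 0.146. There only AGO1 and AGO3 were neighbours separated by more than their SDs. By this measure AGO2 ranked first in 5 of the 6 libraries and AGO3 last in 5 of 6. Merged exons exceed the main transcript by unequal amounts. They come to 22151 against 10384 bases for DICER1, 12968 against 8491 for TNRC6A and 15847 against 14595 for AGO2. The order of these genes, AGO2's first rank included, therefore depends on the choice of length.

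In control cells, the single AGO2-IP and flow-through libraries give ratios without a test. The median control log2 ratio of the 10 genes was 0.65, against 0.01 over 8245 genes. TNRC6A, DICER1 and AGO4 reached 1, and 15.9% of all genes did. With library size alone the medians moved to 1.55 and 0.91. The control flow-through held 43.4% mitochondrial counts and the control AGO2-IP 3.48%. Without mitochondrially encoded genes the median of the 10 was 0.65 and the ratio of TNRC6A 2.13. The part of other differences in library composition was not tested.

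Between mimic and control cells, TNRC6B and TNRC6C stood highest in the mimic AGO2-IP. Their log2 ratios of mimic over control AGO2-IP were 1.78 (1.37 and 2.19 in the single mimic libraries) and 1.73 (1.17 and 2.30). AGO3 followed with 1.22 (1.16 and 1.28). These 3 genes were at 1 or more in both mimic libraries, as were 12.2% of all genes. TNRC6A had a ratio of 1.09 (0.53 and 1.66), DICER1 of 0.62 (0.08 and 1.17), AGO2 of 0.61 (0.27 and 0.96) and AGO4 of 0.14 (0.01 and 0.26). The median over the 10 genes was 0.62, against 0.02 over 11467 genes. In the flow-through, TNRC6B had a mimic over control log2 ratio of 1.27 (0.998 and 1.54), TNRC6C of 1.02 and AGO2 of 0.87 (0.82 and 0.93), while AGO4 had -0.53, DROSHA -0.38 and DICER1 -0.28. None of the 10 reached 1 in both mimic flow-through libraries, where 2.80% of all genes did, and the lower TNRC6B value lay just under that limit. The comparisons share their control and mimic libraries, depth and composition differed between mimic and control as given above, and no test was run on these ratios, which rest on 1 control library per fraction.

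The partners of this machinery were described from 6 lists of 86 genes, of which 79 had enough counts. The lists were chosen with earlier results of these data known. Shares of all genes given beside them are therefore a description and not a test. The median log2 fold change of mimic AGO2-IP over flow-through was 0.82 for the 79 genes. Of these, 31 were at 1 or more, as were 20.0% of all genes tested. Another 9 were at -1 or less, where the lower quartile of all genes was -1.08. edgeR called 2 of the 79 enriched and 0 depleted, where it called 0.245% and 0.413% of all genes. With the replicate block it called 14 enriched and 0 depleted, beside 4.60% and 5.08% of all genes. Of the 79 genes, 27 had an unadjusted p under 0.05 by edgeR, as did 23.8% of all genes tested, and PyDESeq2 called 15 enriched and 2 depleted, beside 6.43% and 8.24% of all genes.

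Both calls lay among the 12 Microprocessor and export partners, which had a median of 1.19. HNRNPA1, which binds certain primary microRNAs, had a log2 fold change of 4.04 (SE 0.63, adjusted p = 0.0349), and its near-identical processed copies make its unique counts uncertain. HNRNPA2B1, a reader of marked primary microRNAs, had 3.19 (SE 0.61, adjusted p = 0.0490), with a control log2 ratio of -0.95. When protein-coding genes alone were tested, neither was called, both with an adjusted p of 0.0636. Over 19 fits with edgeR or DESeq2 in R, the one reported here included, HNRNPA1 was called in 16 and HNRNPA2B1 in 10, with adjusted p-values up to 0.149 and 0.551, the highest for both without the second mimic AGO2-IP library. The lowest there was KHSRP, which binds hairpin loops, with -0.72 (adjusted p = 0.474). XPO5, the exporter of hairpin precursors, had the profile most like AGO2 of 11898 coding genes, with a root-mean-square difference of 0.12 over the 6 libraries and a log2 fold change of 0.55 (adjusted p = 0.581). SPG11 and PPM1K came next to AGO2, both at 0.15, where the median gene was at 0.88.

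The 16 genes of decapping, decay and translational repression had the highest median of the 5 tested lists, 1.54, and 12 of them were at 1 or more, as were 20.0% of all genes. The highest was EIF4A2, a helicase of translation initiation, with 3.45 (adjusted p = 0.0529), and the lowest EDC4, a decapping scaffold, with 0.03 (adjusted p = 0.978). The block called 4 of the 16, beside 4.60% of all genes. The list of the CCR4-NOT and PAN2-PAN3 deadenylase complexes held 18 genes. It also took in associated genes such as BTG1, TOB1 and PABPC1. The median of this list was 0.30, and 2 of the 18 were at 1 or more. Values ran from -1.69 for CNOT3 to 2.11 for CNOT6 (adjusted p = 0.145 and 0.136 by edgeR). CNOT3 transcripts have 61.5% GC and CNOT6 transcripts 39.7%, while CNOT7, with a log2 fold change of -0.86, has 35.6%. The part of GC in the order of these genes was not tested.

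The 14 Dicer partners and loading factors had a median of 0.99, with TSN, a subunit of the complex that clears the passenger strand, at 2.96 (adjusted p = 0.0613) and PRKRA, which binds Dicer, at -2.03 (adjusted p = 0.123). Of 22 Argonaute regulators 19 were tested, with a median of 0.31, from -1.92 for WTIP (adjusted p = 0.206) to 2.53 for FXR1 (adjusted p = 0.0860). TRIM71, LIN28A and LIN28B had too few counts, as did all 4 PIWI genes, the germline relatives of the Argonautes.

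**Figure D5:**
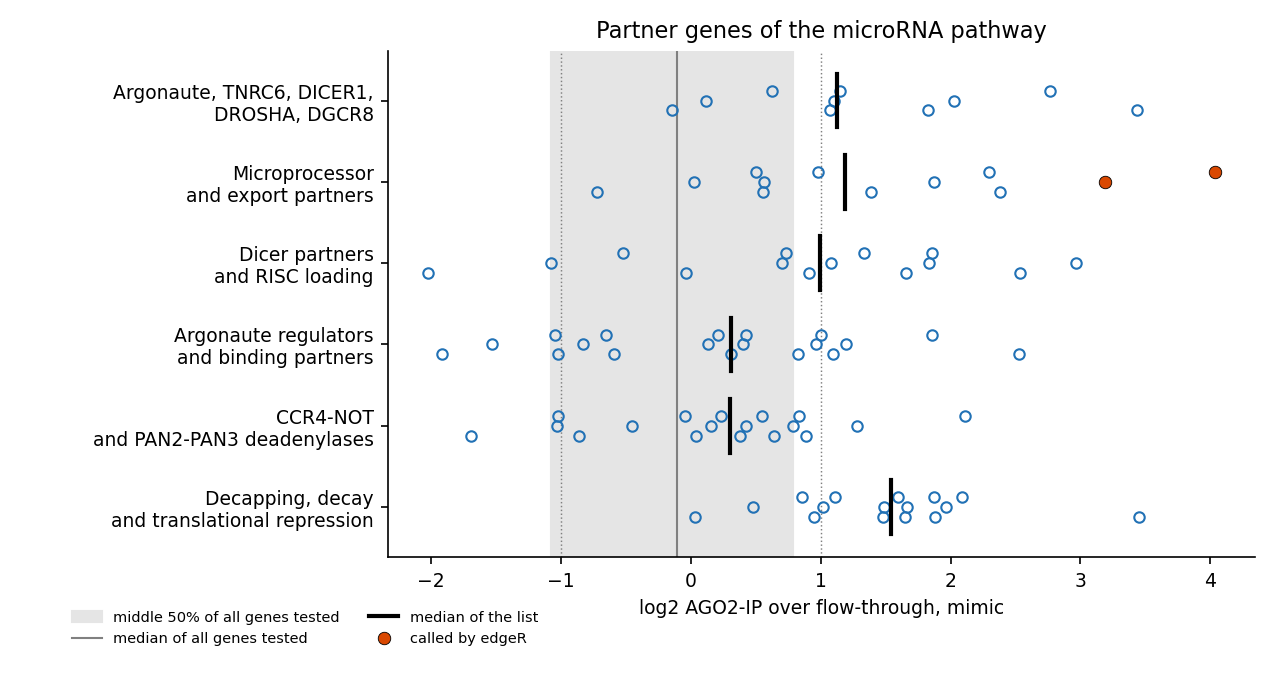
Log2 fold change of mimic AGO2-IP over flow-through for the 10 genes (top row) and the tested genes of 5 partner lists, 1 circle per gene, filled where edgeR called it, with a bar at each list's median and a grey band for the middle 50% of all genes tested. The decapping and repression list has its median at 1.54 and the deadenylase list at 0.30.

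Nearest to DICER1 in profile were CDV3, ZNF90 and PRDM1, with root-mean-square differences of 0.18, 0.19 and 0.19 over the 6 libraries against a median of 1.43 over all coding genes. Nearest to TNRC6B were ZNF718 with 0.15 and HELLS and NOP58 with 0.19 each, against a median of 1.13. Likeness here is of 6 values that share the same library differences.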

How the data were processed

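Per the labels and the study's methods, the authors checked paired-end reads with FastQC 0.11.9, removed adapters with Cutadapt 3.5, ran STAR 2.7.11b against GRCh38 and deposited its counts per gene, whole numbers without normalization; the Ensembl release is not given in the sources used here. The unstranded column was used, because 49.0% to 55.1% of stranded counts fell in column 3. Rows that name no gene (at least 21.4% of read pairs) were left out. They took 35.1% and 47.2% of read pairs in the mimic flow-through libraries, and 21.9% and 21.4% in the mimic AGO2-IP. Of 60708 identifiers 60463 matched GENCODE 44.

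Mimic AGO2-IP and flow-through were compared with edgeR 4.0.16 (R 4.3.3; glmQLFit, glmQLFTest) after TMM normalization, over genes with at least 200 summed counts, without a replicate term. SEs are the log2 fold change over the root of F. Control ratios use TMM-normalized log2 CPM with a prior count of 2. The labels number the biological replicates of the mimic alike in both fractions, and a flow-through is what its own pull-down did not hold. Pairing by number is therefore implied, although no source states that same-numbered fractions came from 1 lysate. Deviations of same-numbered libraries correlated with r = 0.324 and rho = 0.236 across 13078 genes. The fit without a replicate term leaves out this pairing, and the fit with the replicate block includes it. P-values measure the spread between these libraries. The named genes are the 10, the called genes and the highest and lowest of each partner list, and the 3 profiles nearest to AGO2, DICER1 and TNRC6B. The genes, lists and alternatives were chosen with earlier results of these data known. PyDESeq2 0.5.4 and DESeq2 1.42.0 were alternatives, and the scripts were tested on simulated data.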

Additional observations from a re-analysis of the deposited data

How the results depend on the processing

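The number of genes called moved with nearly every setting. Against 32 enriched and 54 depleted by edgeR, the counts were 882 and 1112 with DESeq2 in R, 841 and 1077 with PyDESeq2, 601 and 664 with the replicate block, 434 and 309 with the GC trend removed, and 1835 and 1658 with the GC trend removed and the replicate block. They were 13 and 33 with DESeq2 size factors, 9 and 35 with library size alone, 419 and 204 without a count filter, 144 and 86 with a summed count of at least 10, and 173 and 259 with libraries thinned to the shallowest. Strand column 3 gave 10 and 28, column 4 gave 2 and 12, and the sum of both 5 and 24. Among protein-coding genes only, edgeR called 0 and 0, with 1248 enriched and 1603 depleted at an unadjusted p under 0.05 and a log2 fold change past 1. Leaving out 1 mimic library gave 2 to 2476 enriched and 20 to 2527 depleted. Without the first mimic flow-through the counts were 2476 and 2527, without the second 235 and 420, without the first AGO2-IP 13 and 22, and without the second 2 and 20.

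Of the 10 genes, 0 were called by edgeR, 4 by DESeq2 in R (beside 6.74% of all genes enriched), 4 by PyDESeq2 (6.43%), 2 with the block (4.60%), 2 with the GC trend removed (3.32%), 5 with both (14.0%), 2 without a count filter (0.960%), 1 at a summed count of at least 10 (0.546%), 2 when thinned (1.73%), and 0 to 5 with 1 library left out (5 without the first mimic flow-through, beside 20.2%, and 1 without the second, beside 1.90%). None was called depleted in any of these. Of 190 values for the 10 genes under 19 settings, 155 kept their direction and their side of the threshold, 28 passed the threshold and 7 changed sign. AGO1 came to -0.16 with the GC trend removed, -0.16 with the replicate block as well, -0.0052 when thinned and between -0.0151 and 0.20 with 1 mimic library left out, lowest without the second AGO2-IP. AGO3 came to 0.19 without a filter, 0.16 at a summed count of at least 10 and between -0.51 and 0.26 with 1 library left out, highest without the first flow-through. Without a filter the median of all genes moved from -0.11 to 0.28, and at a summed count of at least 10 to 0.24. The control median of the 10 genes was 1.55 with library size alone. Their mimic over control flow-through median was 0.26, 0.73 with library size alone and 0.13 without mitochondrial genes. The number of libraries, 2 a side, limits the precision, and the cause of these shifts was not tested.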
